A study of Mus musculus with 6 samples.

Results

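The genes described here encode subunits of the mitochondrial respiratory chain and of ATP synthase, measured in livers of wild-type mice and of mice that lack Gα12. Members were found by name: array probes whose accession maps in RefSeq (GRCm38.p6) to a symbol beginning Ndufa, Ndufb, Ndufc, Ndufs, Ndufv, Uqcr, Cox4i, Cox5, Cox6, Cox7, Cox8 or Atp5, or equal to Sdha, Sdhb, Sdhc, Sdhd or Cyc1. Assembly factors named Ndufaf and pseudogenes were left out. This gave 86 genes with 115 probes, of 20284 named genes on the array. By symbol, complex I holds 36 of them, complex II 4, complex III 9, complex IV 19 and complex V 17, with Ndufa4 counted in complex IV, where its protein sits, and Ndufa4l2 in none. A probe entered the comparison if the scanner software marked it as well above background on 3 or more arrays, out of 6. This 84 of the 86 genes met, among 12297 named genes that met it.

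The groups were 3 livers of male WT mice and 3 livers of male Gα12 KO mice, 8 weeks old, fed chow and fasted overnight, with C57BL/6 making up 95% of a mixed C57BL/6 and 129/Sv genome. Gα12, the product of Gna12, is a G protein α subunit that signals from membrane receptors. The labels give neither the deleted part of Gna12 nor any restriction of the deletion to a cell type. RNA of each liver was labelled with Cy3 and read on a 1-colour Agilent mouse expression array, and the study compared the expression profile of knockout livers with that of WT livers. Each level is the log2 of a signal over its array's 75th percentile, each difference is the knockout mean less the WT mean, and 3 arrays per group limit their precision. A signal depends on the probe as well as on the transcript, so levels are compared between livers and not between genes.

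The respiratory chain passes electrons from NADH through complex I, or from succinate through complex II, by way of ubiquinone to complex III, and from there by cytochrome c to complex IV, where oxygen is reduced. Complexes I, III and IV pump protons across the inner membrane, and ATP synthase, called complex V, uses the gradient to make ATP. Most subunits are encoded in the nucleus and imported into the mitochondrion, and the hepatocyte, which oxidises fatty acids in fasting, is rich in mitochondria. No probe was matched by name to a subunit encoded by mitochondrial DNA (0 matched), so only nuclear genes are described.

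Livers differed within the WT group before genotype was considered. Across probes, WT livers 1 and 2 correlated with each other at r = 0.973, and WT liver 3 correlated with them at 0.897 and 0.933 but with the knockout livers at 0.966 to 0.982. The 7 probes for Gapdh spanned 9.58 and 7.79 log2 units on WT arrays 1 and 2 and 4.01 to 4.87 on the other arrays. All WT arrays lay in row 1 of the slide and all knockout arrays in row 2, and genotype cannot be told apart from this position. Array quality also divided by genotype. Spots marked as non-uniform numbered 2, 4 and 6 for WT livers 1 to 3 but 145, 158 and 98 for knockout livers 1 to 3. Background error was 5.97, 6.84 and 8.60 for the former, against 10.5, 12.3 and 13.3 for the latter. The part of these values in the results was not tested. The only probe for Gna12 was well above background on 1 WT array and 0 knockout arrays, and is a weak check of the labels. It was at -3.48, -4.55 and -0.89 on WT arrays 1 to 3 and -4.91, -4.62 and -3.47 on knockout arrays 1 to 3. The WT array with signal was thus array 3, and this probe did not set WT livers 1 and 2 apart from the knockout livers. All 7 hepatocyte markers measured were well above background on every array. In whole tissue, fewer cells of a type and less RNA per cell cannot be told apart.

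No subunit gene passed the test for a difference between genotypes. Limma called 0 of 84 members at an adjusted p below 0.05, as it called 0 of 12297 genes (0%), and trend and robust estimation also called 0. The fitted difference was below 0 for 74 of 84 members, against 72.3% of all genes, and its median over the members was -0.59, against -0.49 over all genes. At an unadjusted p below 0.05, 3 members (3.57%) were lower in the knockout and 1 (1.19%) higher, against 16.6% and 3.98% of all genes. The groups were without overlap for 6 members (7.14%) with the knockout lower and 3 (3.57%) with the knockout higher, against 21.1% and 4.42% of all genes. Under quantile normalization the median was -0.11 over members and -0.21 over all genes, with 65.5% and 63.1% below 0, and without WT liver 1 the medians were -0.26 and -0.34. The order of members and all genes therefore turned under quantile normalization and without WT liver 1. It did not turn under median scaling (-0.45 and -0.36), normexp background correction (-0.57 and -0.38) or in the deposited values (-0.64 and -0.55).

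The values on each array divided the WT livers. The arrays also differed in brightness. The 75th percentile that divides each signal was, in log2, 7.80, 8.30 and 9.09 for WT livers 1 to 3. For knockout livers 1 to 3 it was 8.24, 8.20 and 8.63. The share of probes well above background was 51.6% for WT liver 3 and ran from 37.6% to 42.3% for the rest. The part of these array differences in the values below was not tested. On WT liver 1 the median member lay 1.25 log2 units above its own mean over the knockout livers, and on WT liver 2 it lay 0.73 above. On WT liver 3 it lay at -0.20, and the knockout livers spread only from -0.05 to 0.04 around their mean. The same medians over all genes were 0.82, 0.71 and 0.03 on WT livers 1, 2 and 3. WT livers 1 and 2 were both above all knockout livers for 72 of 84 members (85.7%, against 61.5% of all genes), whereas WT liver 3 was below all knockout livers for 57 members (67.9%, against 26.8% of all genes). Under quantile normalization WT livers 1 and 2 were above for 46.4% of members (47.6% of all genes). WT liver 3 was below for 36.9% (25.4%). Under median scaling, normexp background correction and the deposited values, WT livers 1 and 2 were above for 81.0%, 85.7% and 85.5% of members. Those shares over all genes were 56.7%, 60.2% and 63.3%. WT liver 3 was below for 73.8%, 53.6% and 65.1%, against 32.2%, 30.5% and 25.4% of all genes. The size of both shares thus depended on the scaling, most under quantile normalization.

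Summed markers of some other liver cell types were also high on WT arrays 1 and 2, though not every marker was. The summed signal of 5 erythroid markers, in multiples of the array's 75th percentile, was 1680, 1671 and 769 on WT arrays 1 to 3 and 853 to 975 on knockout arrays. That of 8 Kupffer cell and macrophage markers was 183, 176 and 83.2 in WT and 88.2 to 106 in the knockout, and that of 7 stellate cell markers was 152, 139 and 90.7 in WT and 68.7 to 82.4 in the knockout. Each marker of these 3 lists was well above background on at least 1 array. A sum follows its brightest markers, such as Dcn among stellate markers, at 7.12, 6.88 and 6.34 in WT and 5.94 to 6.22 in the knockout. Reln and Des of that list, both dim, were lowest on WT arrays 1 and 2. So was the macrophage marker C1qa, at 0.16, 1.58 and 2.52 in WT and 2.64 to 3.07 in the knockout. Marco, at 2.45, 2.09 and 1.21 in WT, lay at 1.86 to 3.00 in the knockout. The sums of sinusoidal endothelial, cholangiocyte, neutrophil and lymphocyte markers did not set both WT arrays 1 and 2 apart from the knockout arrays. That of 6 sinusoidal endothelial markers was 142, 119 and 108 in WT and 94.2 to 121 in the knockout. That of 5 cholangiocyte markers was 1.33, 3.52 and 3.38 in WT and 2.27 to 3.16 in the knockout. The 7 hepatocyte markers summed to 8077, 6035 and 4398 in WT and 5231 to 6890 in the knockout. Not every hepatocyte marker followed this sum, as Cps1 and Apoa1 were lowest on WT arrays 1 and 2. Cps1 was at 4.85, 5.75 and 6.66 in WT and 6.64 to 6.82 in the knockout. Apoa1 was at 7.77, 8.18 and 8.82 in WT and 8.78 to 8.96 in the knockout. The part of these markers in the subunit values was not tested.

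**Figure D1:**
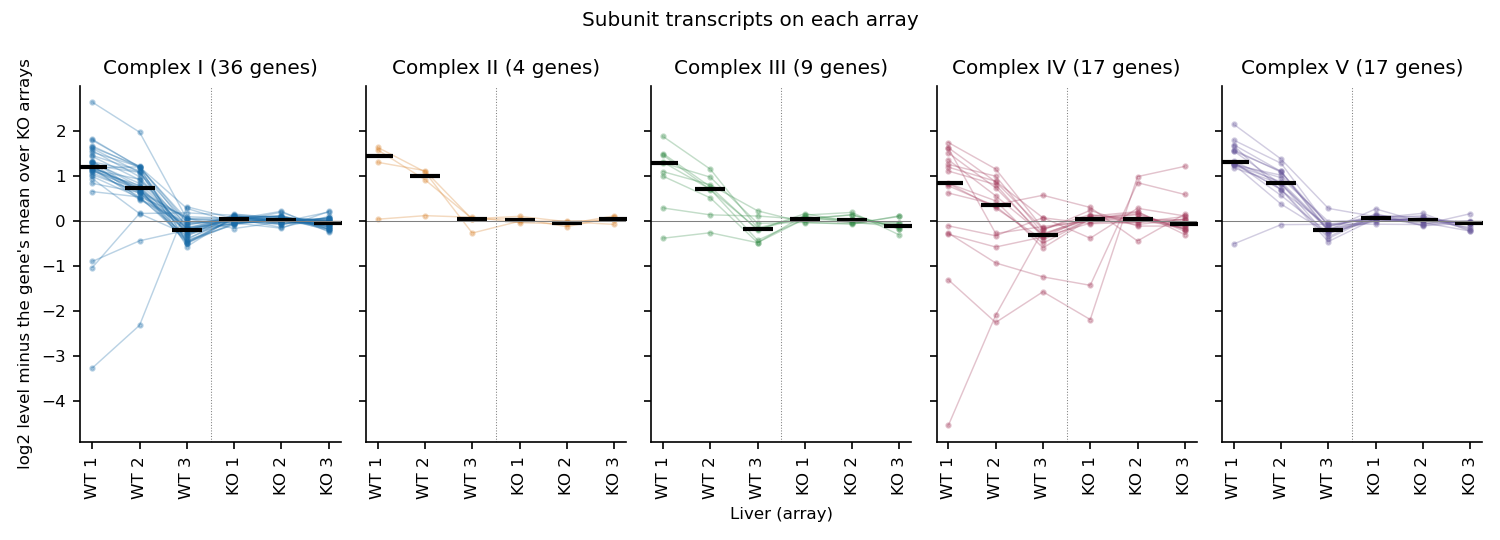
Log2 level of each subunit gene on the 6 arrays, minus that gene's mean over the 3 knockout (KO) arrays, by complex (y axis, log2 units; x axis, livers). Thin lines join the values of 1 gene, without implying an order of livers, and black bars are medians: the medians of WT livers 1 and 2 lie above 0 in every complex, and those of WT liver 3 lie between -0.31 and 0.04.

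The spread between livers was unequal between genotypes. The median SD of a member between WT livers was 0.78, against 0.65 over all genes, and between knockout livers it was 0.10, against 0.19. For 78 of 84 members the SD was larger in WT. Without WT liver 3, limma called 65 members lower and 2 higher at an adjusted p below 0.05, against 50.6% and 11.5% of all genes, and the median difference was -0.99 (-0.77 over all genes). Without WT liver 1 the median was -0.26, and without WT livers 1 and 2 together it was 0.20 (-0.03 over all genes), with 0 members called. Leaving out a single liver kept the median over all members below 0, but that of complex IV was 0.067 without WT liver 1.

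The complex medians lay between -0.82 and -0.40. The median difference was -0.59 over 36 genes of complex I, -0.82 over 4 of complex II, -0.66 over 9 of complex III, -0.40 over 17 of complex IV and -0.72 over 17 of complex V. Differences below 0 made up 33 of 36, 4 of 4, 8 of 9, 12 of 17 and 16 of 17 genes in that order. On WT liver 1 the 5 complexes lay 1.19, 1.44, 1.29, 0.83 and 1.32 above the knockout mean. Under quantile normalization the median differences were -0.085, -0.29, -0.11, -0.014 and -0.20. No test between complexes was made.

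**Figure D2:**
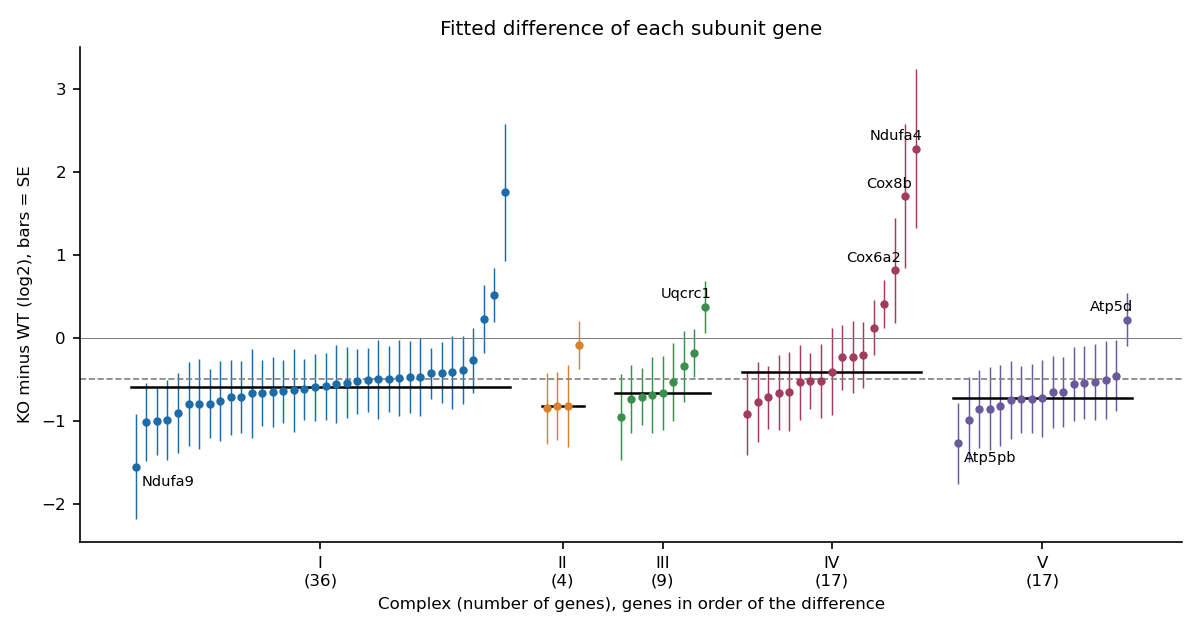
Fitted difference between genotypes (KO minus WT, log2, y axis) of each subunit gene with its standard error, genes in order within each complex (x axis). Black lines are the complex medians from -0.82 to -0.40 and the dashed line is the median of all genes, -0.49; most points lie below 0, with Ndufa4 farthest above.

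Complex I takes electrons from NADH through flavin and iron-sulphur subunits that form its core. Ndufs1, which carries iron-sulphur clusters of the NADH-oxidising arm, had log2 levels of 7.55, 7.22 and 6.30 in WT livers 1 to 3 and 5.98, 5.86 and 6.23 in knockout livers 1 to 3. Every knockout liver was below every WT liver, by a narrow margin for WT liver 3, and the difference was -1.0 (SE 0.40, limma adjusted p = 0.235). Ndufv1, which binds NADH and flavin, was at 8.65, 8.43 and 7.30 in WT and 7.32, 7.36 and 7.34 in the knockout (difference -0.79, SE 0.42). WT liver 3 lay just below the knockout livers. Ndufv2, its iron-sulphur neighbour, was at 8.09, 7.46 and 6.31 in WT and 6.29, 6.20 and 6.35 in the knockout. WT liver 3 lay within the knockout range.

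Most other core subunits showed the same division of livers. Ndufs7, an iron-sulphur subunit near the quinone site, was at 7.73, 7.53 and 6.68 in WT and 6.84, 6.94 and 6.91 in the knockout (difference -0.42, SE 0.37). Ndufs8, which carries the clusters before it, was at 5.31, 5.20 and 4.76 in WT and 4.72, 4.60 and 4.68 in the knockout, where all livers were below WT (difference -0.42, SE 0.31, limma adjusted p = 0.364). Over 7 core subunits the median difference was -0.70, and over 29 accessory subunits -0.58.

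Among accessory subunits of complex I, Ndufa9, a quinone-arm subunit related to dehydrogenases, had the most negative difference of all members, -1.55 (SE 0.63, limma adjusted p = 0.235). Its levels were 8.27, 7.61 and 5.68 in WT and 5.64, 5.56 and 5.71 in the knockout, so WT liver 3 lay within the knockout range. Ndufa13, a membrane-arm subunit also known as GRIM-19 and named here for the brightest probe of the complex, was at 9.94, 9.52 and 8.44 in WT and 8.85, 8.95 and 8.69 in the knockout, with WT liver 3 lowest. Ndufs4, an accessory subunit whose loss in people and mice causes Leigh syndrome, was at 7.49, 7.08 and 5.72 in WT and 5.90, 5.89 and 5.79 in the knockout. These genes were high in WT livers 1 and 2 only.

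A few accessory genes departed from that pattern. Ndufa11, a membrane-arm subunit, was at 3.38, 3.84 and 4.07 in WT and 4.37, 4.37 and 4.10 in the knockout, with every knockout liver above every WT liver (difference 0.52, SE 0.33, limma adjusted p = 0.312). WT liver 3 was only slightly below knockout liver 3. Ndufa10, a subunit related to nucleoside kinases, was low in WT liver 1 alone, at 3.63 against 4.83 and 4.84 in the other WT livers and 4.55 to 4.79 in the knockout. The remaining accessory subunits had differences from -0.99 (Ndufb5) to -0.26 (Ndufb4). Ndufa4l2, a relative of Ndufa4 that is known as a hypoxia target, was at 0.39, 0.60 and -0.59 in WT and -0.30, -0.15 and -0.24 in the knockout.

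Complex II, or succinate dehydrogenase, links the citric acid cycle with the chain. Its flavoprotein gene Sdha was at 7.37, 7.19 and 6.11 in WT and 6.12, 5.94 and 6.15 in the knockout (difference -0.82, SE 0.41, limma adjusted p = 0.250). Its iron-sulphur subunit gene Sdhb was at 9.61, 9.06 and 7.70 in WT and 7.97, 7.97 and 7.99 in the knockout, with the same difference (SE 0.50). In both genes WT livers 1 and 2 stood above the rest. Sdhd, a membrane anchor, was at 8.48, 7.82 and 6.95 in WT and 7.01, 6.89 and 6.83 in the knockout. Sdhc, the other anchor, was at 5.77, 5.85 and 5.82 in WT and 5.70, 5.67 and 5.84 in the knockout by 1 probe. That probe, which stood for Sdhc by a narrowly higher mean, showed no such division. The other probe of Sdhc did and is described further on.

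Complex III oxidises ubiquinol and reduces cytochrome c. The gene of its Rieske iron-sulphur protein, Uqcrfs1, was at 7.90, 7.58 and 6.56 in WT and 6.58, 6.54 and 6.72 in the knockout (difference -0.73, SE 0.41). Cyc1, which encodes cytochrome c1, was at 7.61, 7.46 and 7.43 in WT and 7.36, 7.34 and 7.28 in the knockout. All knockout livers were below all WT livers for Cyc1, but the difference was only -0.17 (SE 0.29, limma adjusted p = 0.676), and it was 0.34 under quantile normalization. The core proteins, which are related to processing peptidases, diverged from each other. Uqcrc2 was at 7.83, 7.54 and 6.96 in WT and 6.70, 6.68 and 6.83 in the knockout, without overlap (difference -0.71, SE 0.34), whereas Uqcrc1 was at 5.13, 5.26 and 5.04 in WT and 5.65, 5.71 and 5.21 in the knockout, where liver 3 lay within the WT range (difference 0.38, SE 0.31). Uqcrq, a small subunit named for its bright probe, was at 9.72, 9.24 and 8.25 in WT and 8.78, 8.87 and 8.55 in the knockout. Its difference of -0.34 (SE 0.43) was less than the spread between WT livers.

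Complex IV, cytochrome c oxidase, has nuclear subunits that exist in isoforms for different tissues. Cox4i1, the common form of its largest nuclear subunit, was at 9.91, 9.61 and 8.43 in WT and 8.90, 9.01 and 8.50 in the knockout. Cox5a was at 9.50, 9.24 and 7.97 in WT and 8.29, 8.27 and 8.18 in the knockout. Cox6a1, the common form of subunit VIa, was at 10.62, 10.23 and 9.19 in WT and 9.83, 9.98 and 9.56 in the knockout. In these genes WT livers 1 and 2 were highest and WT liver 3 lowest of all livers, and the differences of -0.51 (SE 0.45), -0.65 (SE 0.45) and -0.22 (SE 0.43) did not pass the limma test (adjusted p from 0.336 to 0.721). Cox6c departed from this in WT liver 2: it was at 9.01, 7.12 and 7.27 in WT and 7.36 to 7.43 in the knockout, so that only WT liver 1 was high.

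Ndufa4, first described in complex I and now placed in complex IV, had the most positive difference of all members. Its log2 levels were 2.60, 5.05 and 6.93 in WT and 7.38, 7.03 and 7.03 in the knockout, which is 2.28 (SE 0.95) higher, with a limma adjusted p of 0.236. No knockout liver overlapped with WT, but WT liver 3 lay just below the lowest of them, and the WT livers differed among themselves by more than the genotypes did. Cox6b1, the common form of subunit VIb, was at 5.06, 4.78 and 5.0 in WT and 5.31, 5.40 and 5.37 in the knockout. All knockout livers were higher, by 0.41 (SE 0.29, limma adjusted p = 0.351). WT liver 3 lay among the other WT livers here, unlike for Ndufa4.

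The isoforms of complex IV known from other tissues were described whatever their values. Cox6a2 and Cox8b, the heart and skeletal muscle forms of subunits VIa and VIII, varied more between knockout livers than between WT livers. Cox6a2 was at -0.83, -1.49 and -1.80 in WT and -1.98, 0.29 and 0.03 in the knockout. Cox8b was at -2.78, -3.73 and -3.05 in WT and -3.67, -0.49 and -0.27 in the knockout, and was well above background on 2 WT arrays and 2 knockout arrays. Knockout livers 2 and 3 were high in both genes, and knockout liver 1 was within or below the WT range. The differences of 0.82 (SE 0.63) and 1.71 (SE 0.87) had limma adjusted p-values of 0.382 and 0.252. On WT array 2 and knockout array 1, Cox8b lay below the lowest signals well above background there (-3.42 and -2.73). Its difference thus has no exact size.

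Skeletal muscle markers, as a sum, were high in the same livers, though not every marker was. The summed signal of 8 markers, in multiples of the array's 75th percentile, was 0.591 to 0.800 on WT arrays and 0.865, 3.52 and 9.53 on knockout arrays 1 to 3. Tnni2, a fast-muscle troponin, was at -1.46, -1.95 and -1.48 in WT and -1.28, 0.87 and 2.13 in the knockout. Acta1, the skeletal muscle actin, was at -3.93, -3.22 and -2.67 in WT and -2.45, -0.15 and 0.53 in the knockout. Of the 8, Ckm and Mylpf were well above background on 0 arrays. Myh4 was well above it on 1 array, at -0.06 on knockout array 3 but -4.65 on knockout array 2. The markers well above background numbered 1, 1 and 3 on WT arrays 1 to 3 and 1, 4 and 6 on knockout arrays 1 to 3. The muscle sum, Cox6a2 and Cox8b were thus all highest in knockout livers 2 and 3. Cox6a2 was, however, lower and the sum higher in knockout liver 3 than in knockout liver 2. The part of these markers in these results was not tested. Brown fat markers Ucp1 and Cidea were well above background on 0 arrays.

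Other isoforms behaved differently. Cox7a1, the muscle form of subunit VIIa, was at 3.80, 3.04 and 2.0 in WT and 2.32, 2.21 and 2.01 in the knockout, high in WT livers 1 and 2 and not in knockout livers 2 and 3. Cox4i2, a lung and hypoxia form, was at -0.84, -1.06 and -0.66 in WT and -1.12, -0.45 and -0.62 in the knockout, with overlapping groups. Cox6b2, a testis form, was at 1.19, 0.93 and 1.14 in WT and 0.87, 0.13 and 0.72 in the knockout, without overlap (difference -0.51, SE 0.33, limma adjusted p = 0.320). The testis forms Cox7b2 and Cox8c were well above background on 0 arrays and are the 2 members that were not compared.

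**Figure D3:**
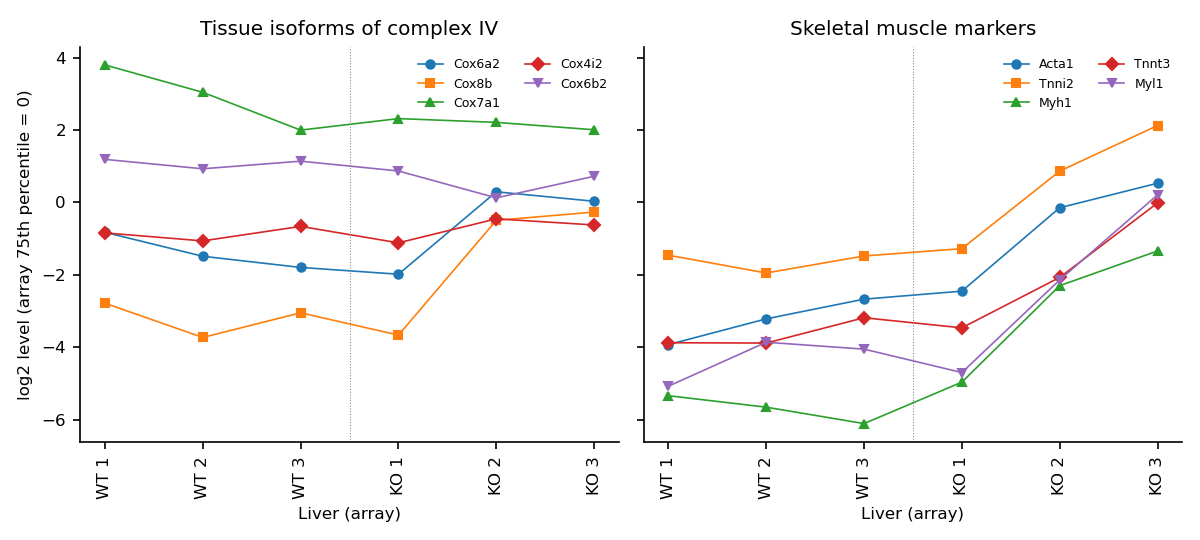
Log2 levels (y axis, array 75th percentile = 0) on the 6 arrays (x axis) of tissue isoforms of complex IV (left) and of 5 skeletal muscle markers (right), each line 1 gene. Cox6a2, Cox8b and the 5 plotted muscle markers, of 8 listed, are highest in KO livers 2 and 3, and Cox7a1 in WT livers 1 and 2.

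Complex V consists of the F1 head, which makes ATP, a rotating ring in the membrane, and a peripheral stalk that holds the head. The genes of the α and β subunits of the head were alike: Atp5a1 was at 8.35, 8.12 and 7.03 in WT and 7.03, 7.02 and 7.26 in the knockout. Atp5b was at 9.94, 9.56 and 8.52 in WT and 8.73, 8.72 and 8.64 in the knockout. Atp5c1, the γ shaft, was at 9.20, 8.69 and 7.28 in WT and 7.54, 7.43 and 7.26 in the knockout. WT livers 1 and 2 stood out in all 3 genes, with differences of -0.73 (SE 0.41), -0.65 (SE 0.42) and -0.98 (SE 0.51) and limma adjusted p-values of 0.257 to 0.318. Atp5d, the δ subunit of the head, was the only member of complex V above 0, at 6.11, 6.54 and 6.55 in WT and 6.69, 6.79 and 6.40 in the knockout (difference 0.22, SE 0.32).

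Outside the head, Atp5pb, the b subunit of the peripheral stalk, was at 8.26, 7.49 and 6.40 in WT and 6.21, 6.02 and 6.13 in the knockout. No liver overlapped, and the difference of -1.26 (SE 0.49) had a limma adjusted p of 0.235. Its other probe gave -1.11 (SE 0.47). The c ring genes Atp5g1, Atp5g2 and Atp5g3, which encode the same mature protein, had differences of -0.74, -0.65 and -0.55. The 4 peripheral stalk genes had a median of -0.79, the 5 F1 genes -0.73 and the 5 small membrane subunits (Atp5j2, Atp5k, Atp5l, Atp5md and Atp5mpl) -0.54. WT liver 3 was the lowest of all livers in each of these 5 small subunits.

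Probes of the same gene did not always give the same answer. Of the 22 members with several probes past the filter, all on 1 accession per gene, 4 (18.2%) had probes with differences of opposite sign, against 43.1% of 2737 genes, and 2 had probes that differed by over 1 log2 unit. Ndufb11, a membrane-arm subunit of complex I, differed most. Its brighter probe was at 9.36, 8.84 and 7.72 in WT and 7.95, 7.94 and 7.90 in the knockout, and its dimmer probe at -3.83, -2.92 and -0.30 in WT and -0.41, -0.39 and -0.38 in the knockout. WT livers 1 and 2 were thus high by the brighter probe and low by the dimmer, with differences of -0.71 (SE 0.45) and 1.96 (SE 0.82). The dimmer probe was well above background on 2 WT and 3 knockout arrays. On WT array 1 it lay below the lowest signal well above background there (-3.07), so the 1.96 has no exact size. Ndufv3, a small subunit of the NADH arm, also had WT livers 1 and 2 high by its brighter probe and low by its dimmer probe. By the brighter it was at 9.27, 8.69 and 7.44 in WT against 7.68 to 7.75. By the dimmer it was at 0.74, 1.24 and 1.87 in WT against 1.53 to 1.80.

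In other genes a dimmer or brighter probe departed from the rest. For Uqcr10, a small subunit of complex III, the brightest probe was at 8.84, 8.07 and 7.19 in WT and 7.27 to 7.45 in the knockout (difference -0.66, SE 0.45). Its dimmest probe was at 5.69, 5.46 and 5.79 in WT and 5.92 to 5.98 in the knockout, so that every knockout liver was above every WT liver, opposite in sign to the brightest probe (difference 0.30, SE 0.29, limma adjusted p = 0.482). For Sdhc the probe that did not stand for the gene was the brighter one on WT arrays 1 and 2, and its mean was almost level with the other's. It was at 7.02, 6.67 and 5.11 in WT and 5.22 to 5.32 in the knockout (difference -1.0, SE 0.51). The probe that stood for Sdhc gave -0.08 (SE 0.29). For Cox7a2l, a factor in the joining of complexes III and IV, the dimmest probe was at 4.37, 4.54 and 4.58 in WT and 4.32 to 4.48 in the knockout. Its brightest probe gave -0.91 (SE 0.50). The 5 probes for Atp5l, by contrast, gave differences from -0.62 to -0.42. In the 5 genes plotted for their discordant probes, the range over a gene's probes was widest on WT arrays 1 and 2, as for Gapdh. For Ndufb11 it was 13.19 and 11.76 log2 units there and 8.02 to 8.36 on the others, with no exact size on WT array 1. Some other members did not have their widest range on WT arrays 1 and 2. For Atp5j2, a small membrane subunit of complex V, the range was 0.438 and 0.320 on those arrays and 0.702 to 1.12 on the others. The part of this range in the differences was not tested.

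**Figure D4:**
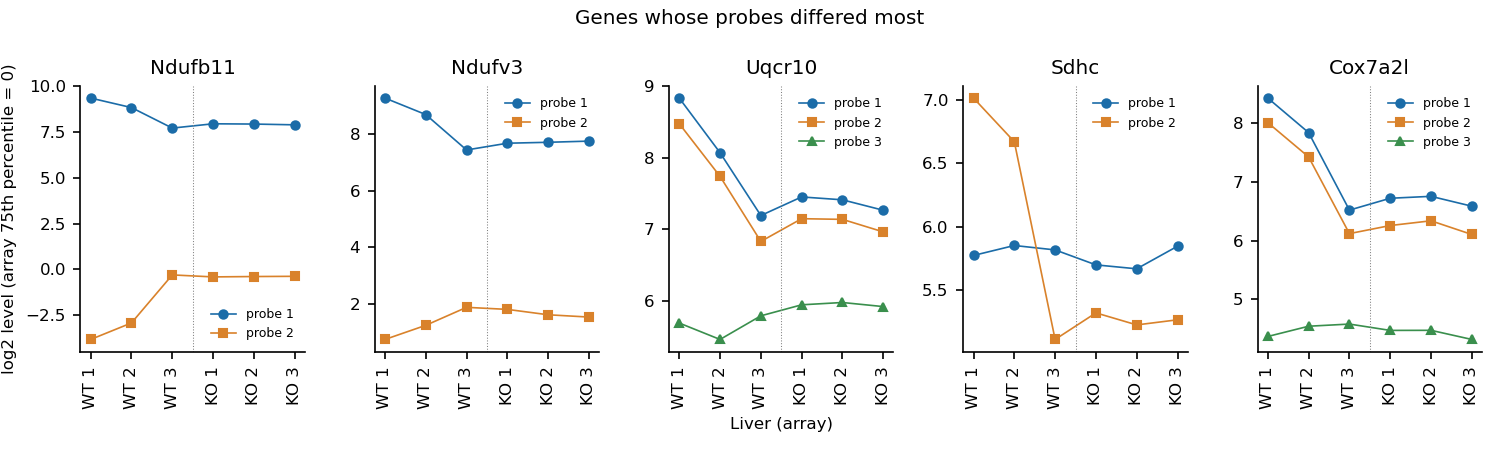
Log2 level (y axis, array 75th percentile = 0; scales differ between panels) of every probe of the 5 subunit genes whose probes differed most, on the 6 arrays (x axis). For Ndufb11 and Ndufv3, WT livers 1 and 2 are highest by probe 1 and lowest by probe 2.

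Some short runs of letters, not used in the choice by name, were more frequent in promoters of subunit genes than in all promoters. None was in most member windows, and the shares were not tested. Windows of 300 bases, from 250 before to 50 after the start, were taken from RefSeq (GRCm38.p6), where 69 of 86 members matched with 74 windows. Exact letters were searched on both strands. GCATGCGC, part of the site of NRF1, an activator of respiratory genes, was in 13.5% of member windows and 2.71% of all windows, and its shorter core TGCGCA, which can overlap it, in 25.7% and 7.76%. CCGGAAGT, a site of ETS factors such as GABP, was in 6.76% and 3.89%, and CCGGAA, which lies within it, in 36.5% and 14.9%. AAGATGGC, a site of YY1, was in 13.5% and 2.75%, and TCAAGGTCA, a site of oestrogen-related receptors, in 2.70% and 0.423%. A match is a run of letters and not shown to be a site.

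The stretches below show bases just before the start of 6 members that lay on different sides of the comparison, chosen after their values were seen. Each is 120 bases, 5′ to 3′ on the gene's strand, with matches to the searched letters in capitals.
Sdhb, chr4:140961151-140961270, + strand: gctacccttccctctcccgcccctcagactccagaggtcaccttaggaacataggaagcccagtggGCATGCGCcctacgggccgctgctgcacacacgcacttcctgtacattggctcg
Ndufa9, chr6:126849145-126849264, - strand: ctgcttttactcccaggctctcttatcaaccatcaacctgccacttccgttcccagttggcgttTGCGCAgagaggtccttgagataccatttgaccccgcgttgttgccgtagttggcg
Cox6a1, chr5:115348959-115349078, - strand: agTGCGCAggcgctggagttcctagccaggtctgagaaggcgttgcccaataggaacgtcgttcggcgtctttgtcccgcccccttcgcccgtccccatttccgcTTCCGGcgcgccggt
Ndufa11, chr17:56717642-56717761, + strand: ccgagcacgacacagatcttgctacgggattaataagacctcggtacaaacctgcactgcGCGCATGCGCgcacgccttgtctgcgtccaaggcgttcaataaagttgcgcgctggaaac
Ndufa4, chr6:11907451-11907570, - strand: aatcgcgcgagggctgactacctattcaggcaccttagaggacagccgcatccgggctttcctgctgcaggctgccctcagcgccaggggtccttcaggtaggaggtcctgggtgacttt
Cox8b, chr7:140900447-140900566, - strand: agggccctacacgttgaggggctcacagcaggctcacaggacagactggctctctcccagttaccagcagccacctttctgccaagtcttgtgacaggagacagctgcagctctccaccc

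Sdhb, high in WT livers 1 and 2, and Ndufa11, low in WT, both hold the NRF1 letters, in Ndufa11 as overlapping matches on both strands. Ndufa9 and Cox6a1 hold the shorter NRF1 core, and Cox6a1 also the ETS core. Ndufa4 and Cox8b hold none in this stretch. Over the 68 compared members with a window, the median difference was -0.62 for 18 genes with the NRF1 core and -0.65 for 50 without it. It was -0.66 for 26 genes with the ETS core and -0.62 for 42 without. Members with and without these cores had nearly the same median, as a description without a test. For the longer letters the gaps were wider, over fewer genes. The median was -0.58 for 10 genes with the NRF1 letters and -0.65 for 58 without. It was -0.52 for 5 and -0.64 for 63 by the ETS letters, and -0.56 for 10 and -0.64 for 58 by those of YY1. By the letters of oestrogen-related receptors it was -0.70 for 2 and -0.64 for 66. None of these gaps was tested.

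Other genes of oxidative phosphorylation were counted from lists chosen by function. Limma called 0 genes in any of them at an adjusted p below 0.05, so the counts are at an unadjusted p below 0.05, which 16.6% of all genes met as lower and 3.98% as higher, with a median difference of -0.49 over all genes. The counts are small, and nothing particular to a list is read from them. Of 17 complex I assembly factors, 3 were lower and 1 higher, with a median of -0.84. Acad9, which helps build complex I, was at 4.31, 4.03 and 3.32 in WT and 2.85, 2.81 and 3.04 in the knockout. Its groups did not overlap (difference -0.99, SE 0.36, limma adjusted p = 0.235). Timmdc1, another assembly factor, was the higher one, at 3.20, 4.16 and 4.84 in WT and 5.96, 6.01 and 4.90 in the knockout. WT liver 3 was close to knockout liver 3.

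For complex IV, 1 of 21 assembly factors was lower and 0 higher, with a median of -0.60. The lower one was Cmc1, at 4.64, 4.13 and 3.33 in WT and 3.02, 3.11 and 2.96 in the knockout. The lists for complexes II, III and V held 4, 5 and 3 measured factors, of which 0 were lower or higher, with medians of -0.68, -0.85 and -0.74. Of 18 genes of electron carriers and ubiquinone synthesis, 3 were lower, and Etfdh, which feeds electrons of fatty acid oxidation to ubiquinone, was at 8.04, 7.58 and 6.18 in WT and 6.12, 5.91 and 5.94 in the knockout. Cycs, cytochrome c itself, was at 8.13, 7.57 and 6.24 in WT and 6.49, 6.45 and 6.69 in the knockout, with WT liver 3 lowest. Of 17 citric acid cycle genes 2 were lower, with a median of -0.56, and Cs, citrate synthase, was at 6.69, 6.94 and 5.47 in WT and 5.69, 5.67 and 5.55 in the knockout. Of 10 carriers, 2 were higher, Ucp2 and Ucp3, of the uncoupling protein family. Ucp2 differed by 1.62 (SE 0.56, limma adjusted p = 0.235) and was at -2.60, -2.32 and -0.51 in WT and -0.28, -0.40 and 0.12 in the knockout, with WT livers 1 and 2 lowest and WT liver 3 close to the knockout livers. Ucp3 was at -5.24 and -4.76 on WT arrays 1 and 2, below the lowest signals well above background there (-3.07 and -3.42), so its difference (limma adjusted p = 0.235) has no exact size. On WT array 3 it was at -0.86, within the knockout range of -1.12 to -0.81.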

How the data were processed

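Per the labels, liver RNA of 3 WT and 3 Gα12 KO mice was hybridised singly. The scanner software, per the submitters' processing notes, was Agilent Feature Extraction 10.7.3.1. The authors' deposited scanner files hold linear intensity with background subtracted, raw median intensities, and marks for each spot. The authors' deposited value table is in log2 and follows the log2 intensity plus a constant for each array, with an SD of 0.044 to 0.136 around it; the basis is not given in the sources used here.

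Outlier spots and controls were left out, log2 intensity minus each array's 75th percentile was taken, and spots of a probe were averaged (55324 of 55681 probes complete). Of these, 23132 were kept. The accession of 26762 probes matched a RefSeq symbol. Of several kept probes of a gene, the one with the highest mean over the arrays stood for it. Tests used limma (version 3.58.1, R 4.3.3, lmFit and eBayes, two-sided), adjusted by Benjamini-Hochberg over all kept probes. The code was checked on simulated data in which both groups had the spread of the knockout livers. That check does not cover the wider spread between WT livers.

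Named were core subunits, tissue isoforms, up to 5 members per direction without overlap, the brightest probe per complex and the 5 genes with the most discordant probes; genes outside this rule were picked after their values were seen. Of the genes the rule names, 1 is counted among the members but not reported here. Members and lists were chosen with earlier results of these data known. Same-numbered WT and knockout livers did not deviate together (r from -0.13 to 0.01), so numbers were not taken as pairs. Alternatives covered scaling, background, filter, probe choice, variance model, replicate block and left-out arrays.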

Additional observations from a re-analysis of the deposited data

How the results depend on the processing

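The number of members called, and the sign of many differences, depended on which WT livers were used. Leaving out 1 liver at a time gave 0 to 67 members called, 0 to 67 lower and 0 to 3 higher at an unadjusted p below 0.05. Median differences then ran from -0.99 to -0.26 over all members, -0.96 to -0.28 for complex I, -1.23 to -0.44 for II, -1.0 to -0.25 for III, -0.64 to 0.067 for IV and -1.11 to -0.32 for V. Of the named genes, 23 passed an adjusted p of 0.05 only without WT replicate 3. In that setting 50.6% of all genes were called lower and 11.5% higher, so the count is not particular to the named genes. Leaving out 1 liver, Cox4i2 ranged from -0.014 (without knockout replicate 2) to 0.32, and Cox6a1 from -0.64 to 0.078 (without WT replicate 1).

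With WT replicates 1 and 2 left out, WT is a single liver assumed to vary like the knockout livers. The medians were then 0.20 over all members, 0.20 for complex I, -0.040 for II, 0.18 for III, 0.31 for IV and 0.20 for V, with 0 members lower and 0 higher. The sign turned for 19 named genes: Atp5a1 (0.075), Atp5b (0.17), Atp5c1 (0.13), Cox4i1 (0.37), Cox4i2 (-0.069), Cox5a (0.28), Cox6a1 (0.60), Cox7a1 (0.18), Cox7a2l (0.17), Ndufa13 (0.39), Ndufa4l2 (0.36), Ndufb11 (0.21), Ndufs7 (0.21), Ndufv1 (0.038), Ndufv3 (0.27), Sdhb (0.27), Uqcr10 (0.18), Uqcrfs1 (0.055) and Uqcrq (0.48).

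Quantile normalization turned Cyc1 (0.34), Ndufs7 (0.11), Ndufs8 (0.052), Sdhc (0.43) and Uqcrq (0.018). It gave 3 of 84 members higher at an unadjusted p below 0.05, against 4.47% of all genes. It brought the medians nearer 0: -0.11 over all members, -0.085 for complex I, -0.29 for II, -0.11 for III, -0.014 for IV and -0.20 for V. Median scaling turned Sdhc (0.062) and gave 1 of 84 members lower at an unadjusted p below 0.05, against 11.8% of all genes. Normexp background correction gave 13 of 84 lower, against 21.1% of all genes. The mean over probes turned Ndufb11 (0.62), since its probes oppose each other. Its dimmer probe was not well above background on WT array 1, so the 0.62 has no exact size. Using no filter gave 3 of 86 members higher, against 15.6% of all genes. The replicate block also gave 3 higher, with 2 lower, against 5.3% and 12.5% of all genes. It changed no call at the adjusted threshold. The cause of the other changes was not tested.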
